A study of Drosophila melanogaster with 36 samples.

Results

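bantam is a Drosophila miRNA with 2 counted arms, listed as dme-bantam-3p and dme-bantam-5p, which were taken by name as 2 of the 310 fly miRNA entries in the deposited count tables and are called bantam-3p and bantam-5p here. bantam-3p was included as the most abundant miRNA of S2 cells and bantam-5p as the other arm of its hairpin, so the first place of bantam-3p in total libraries is how it was chosen and not a finding. The study compared small RNAs of clonal lines of S2 cells, an embryonic cell line of Drosophila melanogaster, to ask whether loading into Ago2 or 2′-O-methylation protects small RNAs from target-directed degradation. The lines were WT, dora, hen1, or hen1/dora, with 3 lines of each genotype per library type. Dora is the fly counterpart of ZSWIM8, the substrate receptor of a ubiquitin ligase needed for target-directed degradation, and Hen1 is the methyltransferase that modifies the 3′ ends of Ago2-bound small RNAs. WT and dora lines were sequenced as total-sRNA, after periodate treatment, and after Ago1-IP, whereas hen1 and hen1/dora lines were sequenced as total-sRNA and after Ago2-IP. Periodate treatment removes small RNAs without a 3′ methyl group from the libraries. Ago1 was recovered through a tagged fragment of the Ago1-binding protein TNRC6B, and Ago2 was a FLAG-tagged protein expressed from a transfected plasmid, so the Ago2-IP libraries report on tagged Ago2 only. In all, 30 small-RNA libraries in 10 groups of 3 were used. The column names of the Ago2-IP table are also those of total libraries and were tied to a genotype only, so these libraries are listed in the order of the table and were not paired with others. Each line is 1 clone, so that the differences between genotypes include differences between clones.

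bantam promotes growth and blocks apoptosis in flies, where it represses the proapoptotic gene hid. Its hairpin is cut by Drosha and then by Dicer-1 into a duplex of the 2 arms, and either strand of such a duplex can be retained by an Argonaute protein. In flies, Ago1 receives most miRNA guide strands, with a preference for a 5′ U, whereas Ago2 receives siRNAs and some opposite strands of miRNA duplexes, often with a 5′ C. These preferences are background from other work.

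The sequences of both arms and of the hairpin were read from the RefSeq genome of Release 6, the build named dm6 in the submitters' notes, and are shown because every result turns on which of the arms was counted. For the mature arms, capitals mark the seed (bases 2 to 8); for the hairpin, capitals mark the arms.

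bantam-3p: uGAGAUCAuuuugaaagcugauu

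bantam-5p: cCGGUUUUcgauuugguuugacu

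bantam hairpin: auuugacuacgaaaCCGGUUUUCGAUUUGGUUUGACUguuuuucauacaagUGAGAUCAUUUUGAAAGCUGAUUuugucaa

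The hairpin spans 81 bases of chromosome arm 3L on the plus strand, chr3L:642208-642288, with bantam-5p at chr3L:642222-642244 and bantam-3p at chr3L:642259-642281. It lies inside the noncoding gene lncRNA:CR43334, which is annotated on the same strand from 628435 to 643900. The study left regions that overlap annotated miRNA transcripts out of its siRNA loci, so the lack of a locus over the hairpin was set in advance. The nearest siRNA locus was 42582 bases away. bantam-3p begins with U and bantam-5p with C. No other of the 301 entries matched to the annotation shared the seed of either arm, so neither arm has a seed family in these data. The first 19 bases of each arm, the stretch on which reads were matched, occurred at 1 place in the genome. In the structure predicted with RNAfold, which had a free energy of -25.7 kcal/mol, 17 of the 23 bases of each arm paired with the other arm. All 7 seed bases of bantam-5p and 6 of the 7 of bantam-3p were paired in this structure, and among the first 4 bases of each arm the 5p arm held 2 G-C pairs and the 3p arm 0.

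The libraries held between 265759 and 11522776 reads of fly miRNAs. The 6 periodate-treated libraries, with 265759 to 671057 reads, and the 6 Ago2-IP libraries, with 344324 to 508914, were the shallowest, and the lowest count of either arm in any library was 7147 reads of bantam-3p, in treated WT line 2, so that counting error was small beside the spread between lines. miR-7-5p, a known substrate of Dora used here to check the genotype labels, stood at 273 to 294 RPM (reads per 1000000 fly miRNA reads) in total WT libraries and at 3717 to 4381 RPM in total dora libraries, and was higher in every dora or hen1/dora library than in the libraries of the same type with Dora, except in periodate-treated libraries, where WT line 3 (140 RPM) exceeded dora line 2 (134 RPM). The files hold no mRNA markers of S2 cells, no dora transcript, and no hen1 transcript in the tables used, so cell identity and the deletions were not checked further. Treated dora line 1 stood apart: size markers made up 57.0% of its counted reads and added standards 9.32%, against at most 0.335% and 0.165% in the other treated libraries.

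To examine how much of the miRNA population bantam represented, the reads of each arm were divided by all fly miRNA reads of the library. In total libraries of WT lines, bantam-3p made up 36.5%, 31.0%, and 32.0% of miRNA reads (331381 ± 29360 RPM, SD, n = 3). The next most abundant miRNAs were miR-14-3p with 165388 ± 14464 RPM, miR-184-3p with 75409 ± 24405 RPM, miR-2ac-3p (an entry that merges miR-2a and miR-2c) with 54250 ± 4365 RPM, and miR-2b-3p with 45731 ± 2263 RPM. bantam-3p was read 1.70 to 2.32 times as often as the second miRNA in each WT line, which describes how it was chosen. bantam-5p made up 1.99%, 1.72%, and 2.21% of the same libraries (19719 ± 2415 RPM), which gave it rank 10 by mean, between miR-13b-3p with 24696 ± 2793 RPM and miR-33-5p with 19320 ± 5433 RPM. Its level could not be told apart from that of miR-33-5p. The most abundant miRNA and its opposite strand were thus both among the 10 entries of WT cells with the highest means, at a ratio of 18.4, 18.0, and 14.5 reads of 3p per read of 5p.

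**Figure D1:**
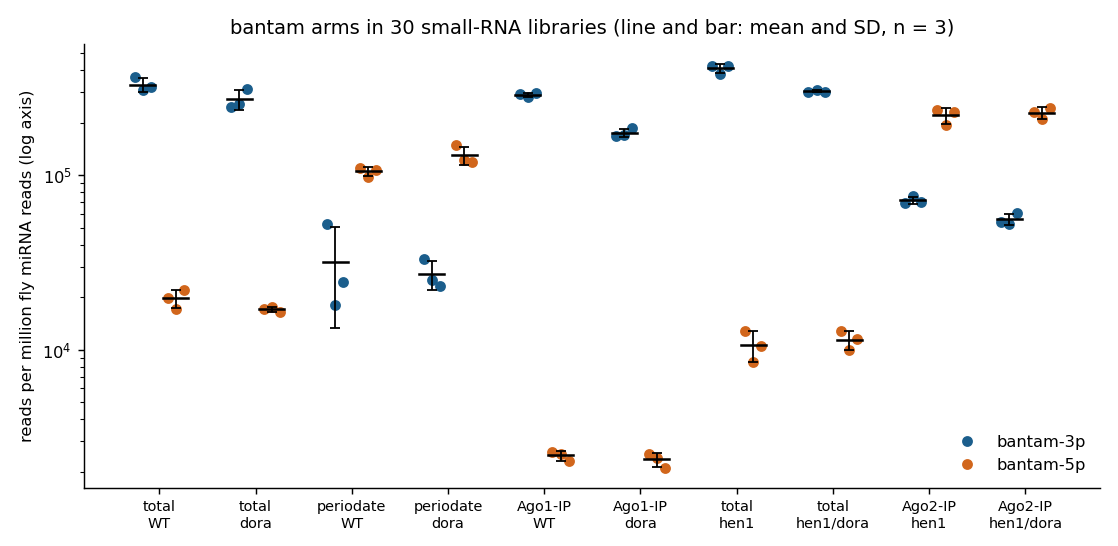
RPM (log axis) of bantam-3p and bantam-5p in each of 30 libraries, by library type and genotype, with the mean and SD of 3 lines. bantam-3p lies above bantam-5p in every total and Ago1-IP library, and below it in every periodate-treated and Ago2-IP library.

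The order of the arms turned over in libraries enriched for Ago2-bound RNAs. In periodate-treated libraries of WT lines, bantam-5p made up 11.0%, 9.80%, and 10.8% of miRNA reads (105229 ± 6372 RPM) and came after miR-33-5p by mean (141703 ± 10913 RPM). bantam-3p made up 5.29%, 1.81%, and 2.44% (31794 ± 18501 RPM), with line 1 more than 2 times as high as the others. In Ago2-IP libraries of hen1 lines, bantam-5p was the most abundant miRNA in all 3, at 23.6%, 19.4%, and 23.2% of miRNA reads (220349 ± 23105 RPM), whereas bantam-3p made up 6.95%, 7.59%, and 7.003% and had rank 3 in each. In Ago1-IP libraries of WT lines, bantam-3p was again first, at 29.3%, 28.1%, and 29.5% of miRNA reads (289876 ± 7689 RPM), and bantam-5p fell to 0.261%, 0.252%, and 0.230% (2477 ± 159 RPM), the place of rank 28. The paper attributes a residual response to Dora in periodate-treated samples to Ago1-loaded RNA left in them, and proposes possible carry-over for the Ago2-IP too. How many of the bantam-3p reads in these libraries came from Ago1 was not tested. Over all 30 libraries, bantam-3p was the most abundant miRNA in 17 and bantam-5p in 8.

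The share of the 5p arm in all bantam reads of a library does not depend on library size or on other miRNAs. It was 5.16%, 5.27%, and 6.45% in total libraries of WT lines, 0.882%, 0.888%, and 0.774% in Ago1-IP libraries, and 67.6%, 84.4%, and 81.5% in periodate-treated libraries. In hen1 lines it was 2.94%, 2.19%, and 2.45% in total libraries and 77.2%, 71.9%, and 76.8% in Ago2-IP libraries. The 3 library types of WT lines did not overlap, and neither did the 2 types of hen1 lines. A two-sided exact permutation test of 3 against 3 libraries, taken as unpaired, gave p = 0.1 for each of these pairs of library types. This is the smallest value that the unpaired test allows (0.16 after adjustment over 66 such comparisons of single values). Same-numbered libraries of WT lines correlated across library types (lowest r = 0.23), which neither this test nor the main fits between library types used.

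**Figure D2:**
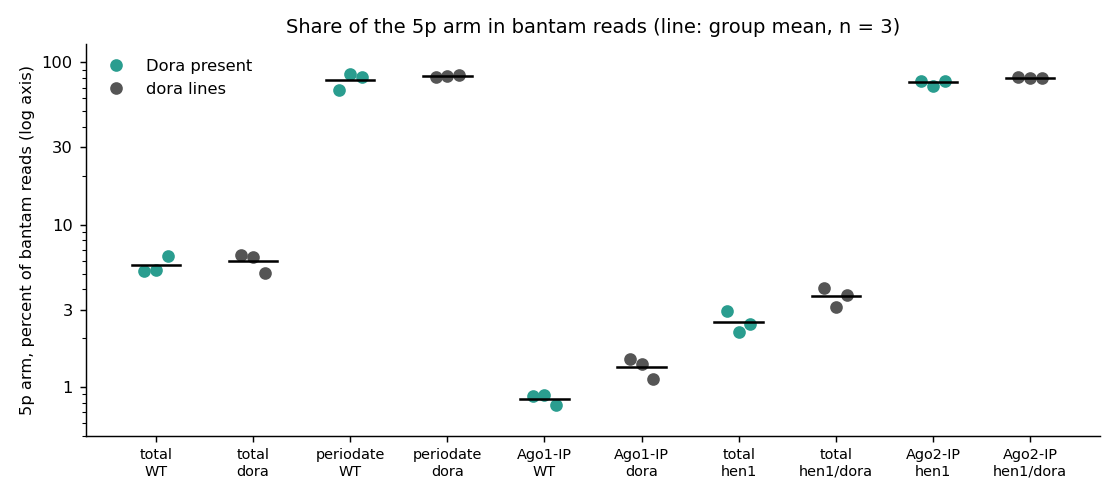
Share of the 5p arm in all bantam reads (percent, log axis) in each library, with the mean of 3 lines, for lines with Dora and for dora lines. The Ago1-IP libraries lie near 1%, total libraries between 2% and 7%, and periodate-treated and Ago2-IP libraries above 67%.

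Both arms were then tested between library types within a genotype, over all miRNAs above 5 RPM, with edgeR's quasi-likelihood test on counts per all miRNA reads (adjusted p by Benjamini and Hochberg; fold changes on the log2 scale with their standard errors). From total to periodate-treated libraries of WT lines, bantam-3p fell by 3.38 ± 0.40 (10.4-fold; adjusted p = 7.2e-05) and bantam-5p rose by 2.42 ± 0.16 (5.34-fold; adjusted p = 5.4e-06). With TMM factors these values were -4.02 and 1.74, and the median of all 110 miRNAs moved from 0.58 to -0.052. In this comparison 34.5% of 110 miRNAs fell and 43.6% rose, and bantam-3p had the eleventh lowest value. In Ago1-IP against total libraries of WT lines, bantam-5p fell by 2.99 ± 0.13 (7.96-fold; adjusted p = 1.6e-06), where 42.1% of 107 miRNAs fell, and bantam-3p had a value of -0.19 ± 0.08 that did not pass the test (adjusted p = 0.078). That value was 0.17 with TMM factors and 0.12 with DESeq2, and passed at -0.32 with a library size free of bantam reads (adjusted p = 0.032) and at -0.24 without total WT line 2 (adjusted p = 0.038), so that its direction depended on the scaling. From Ago1-IP to periodate-treated libraries the 2 arms were furthest apart, with bantam-3p 9.12-fold higher in Ago1-IP (log2 difference 3.19 ± 0.40; adjusted p = 0.00015) and bantam-5p lower by 5.41 on the log2 scale (± 0.15; adjusted p = 6.6e-08), where 37.8% of 111 miRNAs were higher and 55.0% lower. With TMM factors these differences were 4.93 and -3.63, and the median of all 111 moved from -1.17 to 0.61. The paper took the total-sRNA data of WT and dora lines from published work, so library type and library preparation cannot be told apart. The same limit holds where the Dora change is compared between library types.

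**Figure D3:**
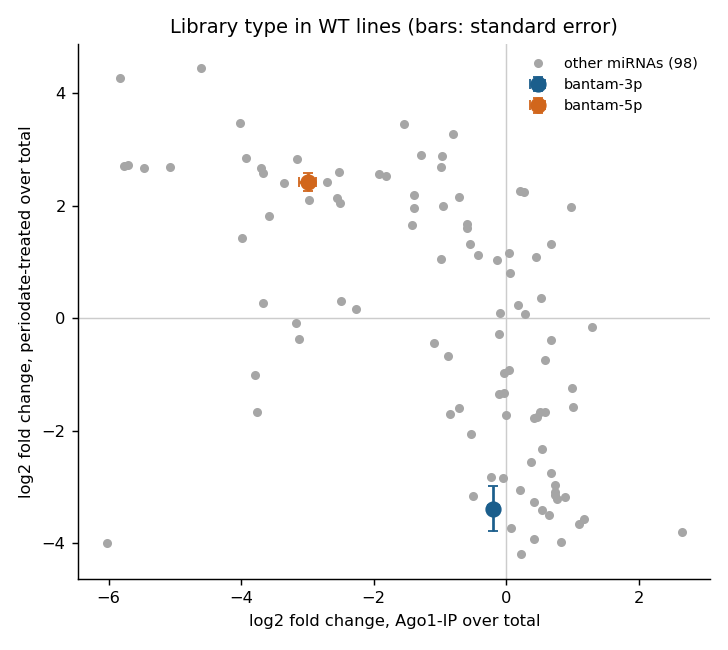
Log2 fold change of each of 100 miRNAs from total to Ago1-IP libraries (horizontal axis) and from total to periodate-treated libraries (vertical axis) of WT lines, with standard errors for the bantam arms. bantam-5p lies at -2.99 and 2.42 at the upper left, and bantam-3p at -0.19 and -3.38 below the centre.

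The same turn was seen in dora lines and in the Ago2-IP. From total to periodate-treated libraries of dora lines, bantam-3p fell by 3.33 ± 0.18 (adjusted p = 2.7e-06 with edgeR; 38.9% of 108 miRNAs fell) and bantam-5p rose by 2.94 ± 0.13 (adjusted p = 9.9e-07; 43.5% rose). In their Ago1-IP libraries, again against total libraries, bantam-5p fell by 2.85 ± 0.11 (adjusted p = 2.1e-06) and bantam-3p by 0.64 ± 0.11 (adjusted p = 0.0026), where 36.1% of 108 miRNAs fell. From total to Ago2-IP libraries of hen1 lines, bantam-5p rose by 4.37 ± 0.18 (20.7-fold; adjusted p = 5.6e-07) and bantam-3p fell by 2.51 ± 0.08 (adjusted p = 2.8e-07), where 57.8% of 109 miRNAs rose and 26.6% fell. In hen1/dora lines the values were 4.32 ± 0.13 and -2.44 ± 0.08, where 51.4% of 111 miRNAs rose and 28.8% fell. Other scalings gave bantam-5p as low as 3.08 and bantam-3p as low as -3.79 in hen1 lines (DESeq2, where the median of all miRNAs moved from 1.30 to 0.015), and 3.40 and -3.36 in hen1/dora lines (TMM factors, where it moved from 0.64 to -0.27). The Ago2-IP and the periodate treatment, which select Ago2-bound RNAs by different means and in different genotypes, thus ordered the arms in the same way, and their values were not tested against each other because the lines differed.

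The ratio of 5p to 3p reads, tested with limma across all hairpins with both arms counted, gave the size of this turn within libraries. From total to periodate-treated libraries of WT lines, the bantam ratio rose by 5.95 ± 0.37 on the log2 scale (61.9-fold; adjusted p = 1.1e-05), the third highest value of 33 hairpins, of which 51.5% rose. Above it were miR-308 at 8.32 ± 0.43 and miR-307a at 6.36 ± 0.73, and below it miR-9c at 5.94 ± 0.21, miR-14 at 5.65 ± 0.43, and miR-2279 at 5.53 ± 0.49, so that bantam and the neighbours from miR-307a to miR-2279 were within their errors of each other. From total to Ago2-IP libraries of hen1 lines, the ratio rose by 6.89 ± 0.20 (119-fold; adjusted p = 4.2e-11) and by 6.76 ± 0.13 in hen1/dora lines, the highest value of 35 hairpins in both, of which 57.1% and 54.3% rose. The next values were 6.56 ± 0.19 for miR-307a and 6.46 ± 0.29 for miR-308 in hen1 lines and 6.25 ± 0.22 for miR-308 in hen1/dora lines, whose differences from bantam were not tested. Between total and Ago1-IP libraries of WT lines it fell by 2.80 ± 0.17 (adjusted p = 4.0e-07), near the middle of 38 hairpins, of which 63.2% fell and whose median was -1.26. In dora lines the ratio rose by 6.27 ± 0.21 in periodate-treated libraries, where 46.2% of 39 hairpins rose, and fell by 2.23 ± 0.24 in Ago1-IP libraries, where 52.3% of 44 hairpins fell.

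The first base of the arms was set beside the same comparisons, as a description of entries that share libraries. Among the 110 miRNAs compared between total and periodate-treated libraries of WT lines, 18 of 25 entries that begin with C rose, as bantam-5p did, and 31 of 54 that begin with U fell, as bantam-3p did. Of the others, 2 entries with a 5′ C fell and 12 with a 5′ U rose, and of 17 with a 5′ A 8 rose and 3 fell. By arm, 32 of 54 5p entries rose and 12 fell, and 16 of 56 3p entries rose and 26 fell. Between total and Ago1-IP libraries, 16 of 24 entries with a 5′ C fell, and 13 of 54 with a 5′ U rose and 11 fell. Entries with a 5′ G moved in the same directions as those with a 5′ C, since 8 of 11 rose in treated libraries and 10 of 10 fell in Ago1-IP libraries, and 33 of 48 5p entries fell in Ago1-IP libraries. Over all entries, 43.6% rose in treated and 42.1% fell in Ago1-IP libraries. The course of bantam-5p was thus shared with most entries of a 5′ C, most of a 5′ G, and most 5p entries, though not with all of them in treated libraries.

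The level of each arm over the 10 groups was compared with that of the 109 miRNAs above 5 RPM, by Pearson's r of log2(mean RPM + 1), as a description with 10 points that share libraries and scaling. The levels most like bantam-3p were those of miR-9b-3p (r = 0.968), miR-14-3p (r = 0.946), and miR-2b-3p (r = 0.942), which stood in total WT libraries at 148 ± 16.3, 165388 ± 14464, and 45731 ± 2263 RPM. The levels most like bantam-5p were those of miR-13b-2-5p (r = 0.995), miR-2a-1-5p (r = 0.993), and miR-306-3p (r = 0.993), at 585 ± 141, 571 ± 54.4, and 94.3 ± 30.2 RPM. The arms themselves had r = -0.775 with each other. The sequences of 5 of them are printed to show what they share with the arms, again with the seed in capitals.

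miR-9b-3p: uAGAGCUUuauuaccaaaaacc

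miR-2b-3p: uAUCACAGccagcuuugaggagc

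miR-13b-2-5p: gCGUCAAAaugacugugagcuaug

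miR-2a-1-5p: cUCUCAAAgugguugugaaaug

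miR-306-3p: gGGGGUCAcucugugccugugc

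None of them shared a seed with bantam. miR-9b-3p and miR-2b-3p begin with U like bantam-3p, miR-2a-1-5p begins with C like bantam-5p, and miR-13b-2-5p and miR-306-3p begin with G.

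To determine whether bantam changed upon loss of Dora, dora lines were compared with WT lines within each library type, with edgeR after TMM scaling, over miRNAs above 5 RPM whose variation between lines was not extreme. In the paper, miRNAs sensitive to Dora rose in total and Ago1-IP libraries, and none of them rose significantly in periodate-treated ones. Neither arm rose past the test in any library type. Periodate-treated and Ago2-IP libraries cannot decide whether an arm is a substrate, because the paper found Ago2-bound RNAs insensitive to Dora. Both arms are also among the miRNAs that the study used for scaling and chose as insensitive to Dora. Whether either arm is a substrate was not tested. In total libraries, bantam-3p went from 36.5%, 31.0%, and 32.0% of miRNA reads in WT lines to 24.7%, 25.7%, and 31.3% in dora lines, with WT lines 2 and 3 close to dora line 3, and its fitted change on the log2 scale was -0.12 ± 0.18 (adjusted p = 0.69; 30% of 100 miRNAs were called). Other scalings ran from -0.084 with DESeq2 to -0.41 with a bantam-free library size (adjusted p = 0.87 and 0.10), and none was called. bantam-5p went from 1.99%, 1.72%, and 2.21% to 1.71%, 1.75%, and 1.65%, with a fitted value of -0.06 ± 0.14 (adjusted p = 0.84). In periodate-treated libraries, where 5% of 100 miRNAs were called, bantam-3p had a value of -0.34 ± 0.33 (adjusted p = 0.62) and bantam-5p of 0.18 ± 0.14 (adjusted p = 0.55). bantam-3p made up 3.32%, 2.50%, and 2.33% and bantam-5p 14.8%, 12.3%, and 11.99% of miRNA reads in treated dora lines. All 3 were above the treated WT lines for bantam-5p (exact permutation p = 0.1), although the test across miRNAs did not call it. Without treated WT line 1, the line with the highest bantam-3p, the change of bantam-3p was 0.35 (adjusted p = 0.39).

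In Ago1-IP libraries, bantam-3p was lower in dora lines. It went from 29.3%, 28.1%, and 29.5% of miRNA reads in WT lines to 16.8%, 17.0%, and 18.7% in dora lines, groups that did not overlap, and the fitted change was -0.79 ± 0.06 on the log2 scale (1.73-fold lower; adjusted p = 2.6e-05, edgeR). It was the third lowest of 91 miRNAs, of which 24.2% fell and 31.9% rose. In dora line 2 miR-14-3p was read 1.004 times as often as bantam-3p, which was otherwise first in this library type. bantam-5p went from 0.261%, 0.252%, and 0.230% to 0.254%, 0.240%, and 0.211%, groups that overlapped, with a value of -0.14 ± 0.11 (adjusted p = 0.30). In hen1 total libraries, bantam-3p also fell, from 42.5%, 38.2%, and 42.2% in hen1 lines to 30.1%, 30.7%, and 30.1% in hen1/dora lines (log2 fold change -0.49 ± 0.05; adjusted p = 4.6e-05), and was the only one of 94 miRNAs called as lower (1.06%; 17.0% were called as higher), although 4 others had lower fitted values that did not pass. bantam-5p had a value of 0.05 ± 0.16 there (adjusted p = 0.91). In Ago2-IP libraries, bantam-3p went from 6.95%, 7.59%, and 7.003% to 5.40%, 5.29%, and 6.08%, with a value of -0.43 ± 0.11 that missed the threshold (adjusted p = 0.082; 2% of 100 miRNAs were called). It passed with DESeq2 (adjusted p = 0.022) and without the hen1/dora library at 6.08% (adjusted p = 0.030). bantam-5p had a value of -0.02 ± 0.11 (adjusted p = 0.92). Carry-over of Ago1-loaded bantam-3p into the Ago2-IP libraries was not tested.

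Each of these shares is relative to the other miRNAs of the library, and reads per read of 2 added standards gave another scale. On this scale the fall of bantam-3p in Ago1-IP libraries was not called: 37.9, 29.1, and 36.6 reads per standard read in WT lines and 31.5, 31.9, and 27.3 in dora lines, groups that overlapped, with a change of -0.19 on the log2 scale (adjusted p = 0.37, edgeR). The standards moved the median of all 91 miRNAs from -0.03 to 0.59, and 45 rose and 0 fell on that scale where 29 rose and 22 fell with TMM. bantam-3p lay below the median on both scales. A change of scale shifts all miRNAs nearly alike, so its place relative to the median was set in advance and is no separate result. All other fly miRNAs together rose from 84.1 ± 8.70 to 143 ± 21.2 reads per standard read (1.70-fold; n = 3 lines each, exact permutation p = 0.1), groups that did not overlap. bantam-5p had a value of 0.49 on this scale (adjusted p = 0.062). In hen1 total libraries bantam-3p went from 36.3, 31.8, and 29.7 to 24.8, 26.4, and 22.0 reads per standard read, groups that did not overlap, with a change of -0.42 (adjusted p = 0.057). There the other miRNAs together were at 46.3 ± 5.58 and 55.2 ± 4.45 reads per standard read (n = 3 lines each, exact permutation p = 0.2). In total libraries of the WT background, bantam-3p was at 23.2, 20.3, and 20.9 in WT lines and at 17.2, 19.4, and 18.4 in dora lines, a ratio of 0.854 whose groups did not overlap (exact permutation p = 0.1). The study describes the standards for total libraries only, so that what their reads stand for in immunoprecipitates is not given in the sources used here, and recovery of RNA in the IP and its amount per cell cannot be told apart. Nor can fewer molecules per cell and a change in the other miRNAs be told apart from the shares.

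**Figure D4:**
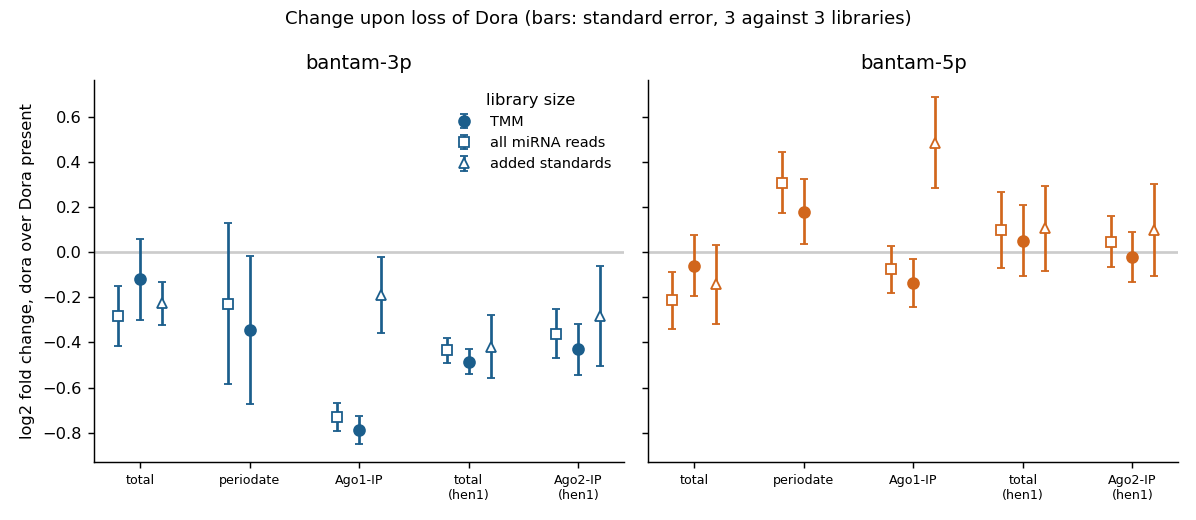
Log2 fold change of bantam-3p and bantam-5p upon loss of Dora in 5 library types, with its standard error, for TMM scaling (filled circles), all miRNA reads (squares), and added standards (triangles; not fitted in periodate-treated libraries). bantam-3p in Ago1-IP libraries moves from -0.79 with TMM to -0.19 with the standards.

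**Figure D5:**
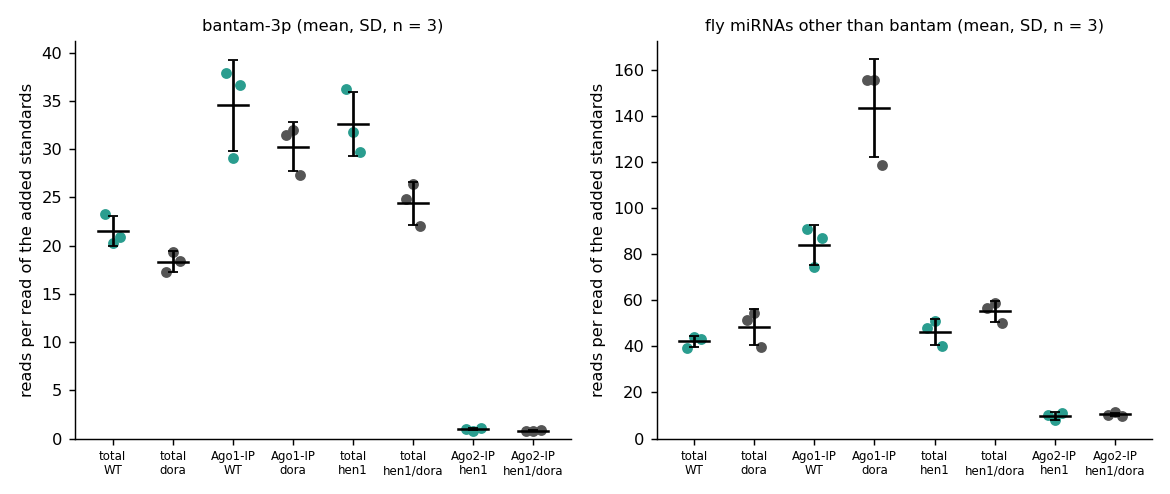
Reads of bantam-3p and of all fly miRNAs other than bantam per read of the added standards in each line, with the mean and SD of 3 lines, for total, Ago1-IP, and Ago2-IP libraries. In Ago1-IP libraries bantam-3p overlaps between WT and dora lines, whereas the other miRNAs are at 84.1 ± 8.70 and 143 ± 21.2.

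The difference of the Dora change between library types was tested as an interaction. bantam-3p fell more in Ago1-IP than in total libraries, by 0.67 ± 0.18 on the log2 scale (adjusted p = 0.032, edgeR with TMM within each type), where 10.5% of 86 miRNAs were called. This call was lost with TMM over both library types (-0.36; adjusted p = 0.21), which moved the median of all 86 miRNAs from 0.02 to 0.33, with the replicate number as a block (-0.66; adjusted p = 0.059), and upon leaving out any of 7 of the 12 libraries (adjusted p = 0.062 to 0.11: total WT lines 2 and 3, Ago1-IP WT lines 2 and 3, and all 3 Ago1-IP dora lines), and the difference was 0.037 with the added standards (adjusted p = 0.85), where that median was 0.72. The numbers of that block did not pair WT with dora libraries, with correlations as low as -0.25 in total and -0.28 in Ago1-IP libraries. bantam-5p showed no difference past the test between Ago1-IP and total libraries (-0.09 ± 0.16; adjusted p = 0.85). Between periodate-treated and total libraries, where 11.1% of 90 miRNAs were called, its difference was 0.17 ± 0.16 (adjusted p = 0.84), which became 0.71 with TMM over both types (adjusted p = 0.039), a scaling that moved the median of all 90 miRNAs from -0.14 to 0.42. Between Ago2-IP and total libraries of the hen1 background, bantam-3p differed by 0.03 ± 0.13 (adjusted p = 0.98; 14.6% of 89 miRNAs were called), which became 0.68 with TMM over both types (adjusted p = 0.015), where the median of all 89 moved from -0.11 to 0.53. The change of bantam-3p in total libraries was not shown to differ between the hen1 and WT backgrounds (-0.41 ± 0.20; adjusted p = 0.28; 4.3% of 93 miRNAs were called).

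The arm ratio, which no scaling affects, rose upon loss of Dora where bantam-3p fell. In Ago1-IP libraries the share of the 5p arm went from 0.882%, 0.888%, and 0.774% in WT lines to 1.49%, 1.39%, and 1.12% in dora lines, groups that did not overlap. The log2 ratio of 5p to 3p rose by 0.65 ± 0.16 (1.57-fold; adjusted p = 0.0092, limma). The ratio rose at 45% of 40 hairpins, with a median of 0.34 over all of them, and bantam was sixteenth from the top. In hen1 total libraries the share went from 2.94%, 2.19%, and 2.45% to 4.07%, 3.12%, and 3.71%, and the ratio rose by 0.54 ± 0.17 (adjusted p = 0.035), where 33.3% of 39 hairpins rose. That call was lost without hen1 line 2 or 3 or without hen1/dora line 1 or 3 (adjusted p = 0.097 to 0.11, with values of 0.44 to 0.52). In Ago2-IP libraries the share went from 77.2%, 71.9%, and 76.8% to 81.0%, 79.8%, and 80.0%, groups that did not overlap, but the ratio did not pass the test (0.41 ± 0.14; adjusted p = 0.14; 0% of 30 hairpins were called with limma, 5 of them at an unadjusted p under 0.05). In total libraries of the WT background the ratio had a value of 0.08 ± 0.22 (adjusted p = 0.82; 32.5% of 40 hairpins were called), and in periodate-treated libraries of 0.39 ± 0.36 (adjusted p = 0.67; 0% of 26 hairpins were called with limma, 1 at an unadjusted p under 0.05), or -0.014 without treated WT line 1. The rise in Ago1-IP libraries was not shown to differ from that in total libraries (0.57 ± 0.27; adjusted p = 0.22; 18.6% of 43 hairpins were called).

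To examine loss of Hen1, total libraries of hen1 lines were compared with those of WT lines. These libraries stand in separate deposited tables, and size markers made up 1.17% to 1.45% of counted reads in hen1 and hen1/dora libraries against 2.12% to 4.06% in WT and dora libraries, so that genotype and library preparation cannot be told apart. The paper also warns that 3′ methylation can bias adaptor ligation in this comparison. Its northern blots of miR-277, CG4068_1, and CR18854_1 gave changes near those by sequencing, but bantam was not blotted. Such a bias was not tested for either arm or for their ratio. bantam-3p was higher in hen1 lines, by 0.64 ± 0.12 on the log2 scale (1.55-fold; adjusted p = 0.0083, edgeR), where 19.4% of 98 miRNAs rose and 18.4% fell. bantam-5p was lower, by 0.55 on the log2 scale (± 0.17; adjusted p = 0.041), a call lost with no filter on low values (-0.29; adjusted p = 0.31) and without WT line 1 or 3 or hen1 line 2 (adjusted p = 0.085 to 0.0996). The arm ratio fell by 1.21 ± 0.20 (adjusted p = 0.00082), the fourth lowest of 38 hairpins, of which 31.6% fell. The share of the 5p arm thus went from 5.63% ± 0.714 in WT lines to 2.53% ± 0.384 in hen1 lines (SD, n = 3), groups that did not overlap (exact permutation p = 0.1). In the dora background, where 14.6% of 103 miRNAs were called, bantam-3p had a value of 0.23 ± 0.19 (adjusted p = 0.41). bantam-5p had a value of -0.49 ± 0.15 (adjusted p = 0.053). bantam-3p passed without dora line 3 (0.41; adjusted p = 0.0044) and with the added standards (0.41; adjusted p = 0.023). bantam-5p passed without dora line 1 or 3 (adjusted p = 0.047 and 0.014). The arm ratio fell by 0.74 ± 0.22 there (adjusted p = 0.046, limma, where 7.5% of 40 hairpins fell). The call was lost upon leaving out any 1 library other than dora line 3 (adjusted p = 0.083 to 0.16). It was also lost with the replicate number as a block (adjusted p = 0.058, limma). These lines are separate clones of different genotypes, so that their numbers need not pair them.

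bantam shares its action on proapoptotic genes in flies with the seed family of miR-2, miR-13, miR-6, miR-11, and miR-308 and with miR-14. These appear as 8 guide-strand entries, all of them but miR-14-3p from the same seed family. They were followed as a fixed list to place bantam-3p among miRNAs of like function. In Ago1-IP against total libraries of WT lines, where 17.8% of 107 miRNAs rose, 6 of the 8 rose and 0 fell, with a median of 0.64 beside -0.14 over all 107 miRNAs, whereas bantam-3p did not pass. The largest rise was that of miR-308-3p at 2.65 ± 0.14. From total to periodate-treated libraries, where 34.5% of 110 miRNAs fell, 5 of the 8 fell and 0 rose, with a median of -3.17 beside 0.58 over all miRNAs. The 5 lay between -3.14 (miR-13b-3p) and -3.80 (miR-308-3p), beside -3.38 for bantam-3p, whereas miR-6-3p at -1.32 ± 0.60, miR-13a-3p at -0.16 ± 0.55, and miR-11-3p at 0.083 ± 0.15 did not pass. Upon loss of Dora in Ago1-IP libraries, where 24.2% of all 91 miRNAs fell, 3 of the 8 fell, miR-6-3p by 0.67 ± 0.19, miR-2ac-3p by 0.38 ± 0.07, and miR-13b-3p by 0.27 ± 0.09 (adjusted p = 0.020, 0.0030, and 0.036, edgeR), and 5 did not pass, among which was miR-14-3p. The median of the list was -0.20 beside -0.03 over all 91 miRNAs, against -0.79 for bantam-3p. In total libraries, where 30% of 100 miRNAs were called, miR-308-3p alone of the 8 passed, with a fall of 0.71 ± 0.16 (adjusted p = 0.016, edgeR). In hen1 total libraries, where 17.0% of 94 miRNAs rose and 1.06% fell, 0 of the 8 passed with edgeR (1 at an unadjusted p under 0.05).

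Both arms belong to the cohorts of abundant miRNAs that the study used to scale its libraries, bantam-3p to the 15 miRNAs enriched in Ago1 and bantam-5p to the 11 enriched in Ago2. These cohorts were chosen on these same libraries, as insensitive to Dora and as enriched in treated or untreated libraries, so their direction is not independent evidence in either comparison. In Ago1-IP libraries 5 of the 15 fell and 3 rose upon loss of Dora, where 24.2% of 91 miRNAs fell and 31.9% rose, with a median of -0.15, or -0.04 without bantam-3p, beside -0.03 over all miRNAs. With a library size of the cohort from which bantam was left out, the fall of bantam-3p was still called in Ago1-IP libraries and in hen1 total libraries. Of the 11 Ago2-enriched miRNAs, 0 passed upon loss of Dora with edgeR in periodate-treated libraries (0 at an unadjusted p under 0.05), where 5% of 100 miRNAs were called. In Ago2-IP libraries 0 of them passed (3 at an unadjusted p under 0.05), where 2% of 100 miRNAs were called. Because the cohort was chosen as insensitive to Dora, these counts say nothing further about its members.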

How the data were processed

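Small RNAs of 30 libraries (10 groups of 3 clonal lines) were analysed. The authors trimmed reads with cutadapt, matched their first 19 nt to miRNAs, and deposited read counts per miRNA. Per the submitters' notes, the build was dm6. The 6 siRNA locus tables, apart from positions, and 6 RNA-seq libraries were not used. bantam and all lists were chosen with earlier results of these data known.

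RPM were computed per fly miRNA read. Counts were tested with edgeR 4.0.16 (R 4.3.3) after TMM, or on all miRNA reads between library types. The tests after TMM covered miRNAs above 5 RPM in the reference lines whose coefficient of variation lay within 1.5 interquartile ranges of the quartiles. Reference lines were WT lines, hen1 lines for loss of Dora in hen1 cells, and dora lines for loss of Hen1 in dora cells. Arm ratios were tested with limma 3.58.1 (pseudocount 0.5, at least 10 reads on average per arm). Adjusted p-values follow Benjamini and Hochberg (threshold 0.05), and standard errors of edgeR values derive from its F statistic. DESeq2 1.42.0, other library sizes, filters, left-out lines, and a replicate block were alternatives. The tests were tested on simulated data. ViennaRNA 2.7.2 folded the hairpin. Named miRNAs followed a rule: the 5 most abundant in total WT libraries, neighbours of bantam in abundance and in arm ratio (3 on each side), the 3 most alike per arm, miR-7-5p, and called members of the proapoptotic list. The replicate block used the line numbers in all comparisons without Ago2-IP libraries. Every same-numbered pair correlated above 0.1 between library types of WT lines and for loss of Hen1 in dora lines (lowest 0.177, for the latter). In the other comparisons checked not every pair did, and the lowest value was -0.40 (treated against total dora libraries). Ago2-IP columns share their names with total libraries and were tied to a genotype only, so no block was fitted for them. P-values between genotypes rest on the spread between clonal lines, with variances that edgeR and limma moderate across miRNAs or hairpins. Those between library types come from unpaired fits and do not measure the spread of differences within lines.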

Additional observations from a re-analysis of the deposited data

Results flagged for a closer look

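The change of bantam-3p upon loss of Dora differed between Ago1-IP and total libraries by -0.67 on the log2 scale (adjusted p = 0.032, edgeR interaction test, 12 libraries). It missed the threshold with TMM over both library types (-0.36) and with the replicate block (-0.66), and was 0.037 with the added standards.

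Treated dora line 1 held 9.32% of its counted reads in the added standards, against at most 0.165% in treated WT lines. bantam-5p was still at 14.8% of fly miRNA reads in this line.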

How the results depend on the processing

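Both arms and their ratio were followed over 18 comparisons. Of 270 values from alternatives other than left-out lines, 234 kept direction and side of the threshold, 9 lost the call, 9 gained it, and 18 changed sign. The cause was not tested for any of them.

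With the added standards, the change of bantam-3p upon loss of Dora was -0.19 in Ago1-IP and -0.42 in hen1 total libraries, both no longer called, its difference between Ago1-IP and total libraries was 0.037 (chosen after seeing the data), and its change upon loss of Hen1 in dora lines was 0.41, now called. bantam-5p on the same scale was at 0.49 in Ago1-IP and 0.0996 in Ago2-IP libraries upon loss of Dora, and its difference between Ago1-IP and total libraries was 0.63.

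With a bantam-free library size, bantam-5p upon loss of Dora was at -0.29 in Ago1-IP (adjusted p = 0.037), 0.028 in Ago2-IP, and -0.15 in hen1 total libraries, its change upon loss of Hen1 in dora lines was -0.52 (called), and bantam-3p from total to Ago1-IP of WT lines was at -0.32 (called). With the study's cohort, bantam-5p was at 0.048 in Ago2-IP and -0.080 in hen1 total libraries upon loss of Dora. With all miRNA reads it was at 0.046 in Ago2-IP libraries and at -0.57 upon loss of Hen1 in dora lines (called), its difference between Ago1-IP and total libraries was 0.14, and that of bantam-3p between treated and total libraries 0.055. With TMM over both library types, the difference from total libraries was -0.36 for bantam-3p (not called) and 0.23 for bantam-5p in Ago1-IP, 0.26 and 0.71 (called) in treated, and 0.68 (called) and 0.56 in Ago2-IP libraries. From total to Ago1-IP of WT lines, bantam-3p was at 0.17 with TMM and 0.12 with DESeq2.

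With DESeq2, bantam-3p in Ago2-IP libraries upon loss of Dora was at -0.45 (called), bantam-5p in hen1 total libraries at -0.017, and bantam-5p upon loss of Hen1 in dora lines at -0.48 (called). With no filter on the coefficient of variation, bantam-5p in hen1 total libraries was at -0.033, and with no filter on low values its change upon loss of Hen1 was -0.29 (not called). With no minimum of reads, arm ratios of 0.65 (Ago1-IP) and 0.54 (hen1 total) upon loss of Dora and of -0.74 upon loss of Hen1 in dora lines kept their values but lost the call among more hairpins. With the replicate block, the difference of bantam-3p between Ago1-IP and total libraries at -0.66 (not called), and the arm ratio upon loss of Hen1 in dora lines at -0.74 (not called); the block changed no other call. No block was fitted for Ago2-IP libraries, whose columns were tied to a genotype only.

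Leaving out 1 line at a time gave, upon loss of Dora, -0.30 to 0.0016 (bantam-3p) and -0.091 to 0.055 (bantam-5p) in total libraries, -0.56 to 0.35 (bantam-3p) and -0.014 to 0.67 (arm ratio) in treated libraries, -0.51 to -0.38 (bantam-3p) and -0.12 to 0.072 (bantam-5p) in Ago2-IP libraries, and -0.056 to 0.21 (bantam-5p) and 0.44 to 0.66 (arm ratio) in hen1 total libraries. Differences from total libraries ran from -0.78 to -0.50 (bantam-3p) and -0.16 to 0.063 (bantam-5p) for Ago1-IP, -0.59 to 0.26 (bantam-3p) and -0.095 to 0.59 (arm ratio) for treated, and -0.14 to 0.037 (bantam-5p) for Ago2-IP libraries, and between hen1 and WT backgrounds from -0.042 to 0.20 (bantam-5p). From total to Ago1-IP of WT lines bantam-3p ran from -0.24 to -0.12. Upon loss of Hen1 bantam-5p ran from -0.69 to -0.43, and in dora lines values ran from 0.060 to 0.41 (bantam-3p), -0.59 to -0.43 (bantam-5p), and -0.87 to -0.64 (arm ratio).

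The number of miRNAs called upon loss of Dora, with edgeR and the alternatives other than left-out lines, was 30 (18 to 37) in total, 5 (0 to 6) in treated, 51 (45 to 53) in Ago1-IP, 2 (1 to 6) in Ago2-IP, and 17 (11 to 24) in hen1 total libraries. That for the difference between Ago1-IP and total libraries was 9 (7 to 24). With 1 line left out, these counts were 11 (without total WT line 3) to 32 in total, 0 (without treated dora line 2) to 8 in treated, 33 (without Ago1-IP dora line 1) to 52 in Ago1-IP, 0 to 8 in Ago2-IP, 13 to 26 (without hen1 line 2) in hen1 total libraries, and 6 (without Ago1-IP WT line 3) to 11 for the difference. Values per standard were not fitted in treated libraries, where standards were read 165 to 617 times outside dora line 1.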
